A study of Mus musculus with 15 samples.

Results

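Skin from lesions of mice that lack OTULIN in the epidermis was compared with skin of wild-type (WT) mice, gene by gene, in 5 lesional and 5 WT RNA libraries. These are 10 of the 15 libraries of the study, the other 5 being OTULIN-deficient skin without lesions, and genes with at least 50 counts over the 10 libraries were tested. All animals were 3-week-old mice on the C57BL/6 background. WT animals were littermates that carried loxP-flanked *Otulin* alleles but no Cre. The OTULIN-deficient animals, called OTULIN E-KO after the study, were *Otulin* fl/fl K14-Cre, in which the keratin 14 promoter drives Cre in keratinocytes, the cells that build the epidermis. Each library came from a skin sample that also holds dermis, fat, muscle, vessels and immune cells, which this promoter does not target. By the study's description the libraries of a group came from separate mice. The body site of the samples is not given, and the labels do not say whether lesional and non-lesional pieces came from the same animals.

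OTULIN is an enzyme that removes linear (Met1-linked) ubiquitin chains, which the LUBAC complex attaches to proteins of the TNF receptor and other innate immune complexes. In keratinocytes, these chains help to decide whether TNF leads to NF-κB signalling or to cell death through RIPK1, caspase-8 or RIPK3 and MLKL. Inflamed, thickened epidermis is known to switch on a set of stress keratins, small proline-rich proteins and antimicrobial proteins, and interferons (IFNs) switch on a separate set of antiviral genes through STAT2 and IRF9. The comparison addresses which of these sets differ in lesions.

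3′ tag libraries were made, in which each transcript gives 1 tag near its end, so levels can be compared between genes without a correction for length. Values are CPM, the counts of a gene scaled to a common library total, after TMM normalization, which corrects for differences in library composition, and are always listed in the order of WT replicates 1, 4, 7, 10 and 13 and lesional replicates 2, 5, 8, 11 and 14. Library totals were 2248846 to 2567138 counts in WT and 1962604 to 2510703 in lesional skin, with medians of 2371559 and 2165875 (two-sided exact permutation test, p = 0.0714). The smallest p that 252 regroupings of 5 and 5 libraries allow is 0.00794. At these totals 1 count is worth less than 1 CPM, and genes below a few CPM rest on few tags. Spearman correlations between libraries were 0.935 to 0.961 within WT and 0.819 to 0.959 within lesional skin. The skin markers *Col1a1* (a dermal collagen) and *Krt5* (a basal keratin) were high in all 10 libraries. *Col1a1* was counted at 12228, 18134, 20894, 9596 and 26842 CPM in WT and 9392, 14094, 20854, 5892 and 24886 CPM in lesional skin. *Krt5* was counted at 2401, 1727, 1933, 2116 and 1977 CPM in WT and 2709, 1696, 1955, 4331 and 1744 CPM in lesional skin. Skeletal muscle genes, of which 11 of 28 were higher in lesional skin with a median log2 fold change of −0.03 and 0.39 without lesional replicates 2 and 11, moved with single libraries. All 28 lay below every WT library in lesional replicate 11 and 22 of 28 lay above every WT library in lesional replicate 14. Transcripts of the Y chromosome were near 0 in WT replicate 1 and lesional replicate 11, where *Xist*, the RNA of the inactive X chromosome, was highest, and sex was not balanced by a label. Of the 5 sex-linked genes 1 was higher in lesional skin, with a median of −0.025, and 0.14 without lesional replicates 2 and 11. With the level of the Y-linked genes as a covariate, the medians of the type I IFN and stress keratin lists described below were 1.15 and 3.50.

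*Otulin* itself, the deleted gene, was counted at 22.9, 27.9, 28.1, 12.2 and 22.9 CPM in WT and 27.2, 18.9, 25.5, 24.1 and 26.7 CPM in lesional skin. The groups overlapped fully (log2 fold change 0.11 ± 0.22, SE), and the direction rests on WT replicate 10, without which the log2 fold change was −0.056. Whole skin holds cells in which Cre is not active, and a 3′ tag outside the deleted part would be counted in any case. The position of the deletion relative to the tags is not given in the sources used here, so these counts do not check the labels.

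Of 14979 genes with at least 50 counts over the 10 libraries, edgeR's quasi-likelihood test called 0 (0.0%) at an adjusted p under 0.05, and the smallest adjusted p was 0.906. At an unadjusted p under 0.05 it held 550 higher genes (3.67%) and 246 lower genes (1.64%). DESeq2 called 14 genes, all higher in lesional skin. These were *Teddm3*, *Serpinb3a*, *Uox*, *S100a8*, *Krt6b*, *S100a9*, 2610528A11Rik, *Stfa3*, *Klk13*, *BC100530*, *Ddx60*, *Rtp4*, *Ifi44* and *Stfa1*. With 0 calls, fold changes of lesional against WT skin are given with their standard error (SE) as sizes, and every tested gene has an adjusted p of at least 0.906 in the edgeR test. The 5 lesional values were all above the 5 WT values for 63 genes (0.421%) and all below them for 40 genes (0.267%). Regrouping alone gives non-overlap in either direction with a probability of 0.00794 per gene. Together the 2 shares are not above that, so non-overlap of a single gene is a description and no evidence of a difference. Non-overlap is read in CPM, and the raw counts of such genes can overlap.

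Lesional libraries differed from each other more than WT libraries did. Over 7403 genes with a mean of at least 20 CPM, the median within-group SD of log2 CPM was 0.325 in lesional and 0.232 in WT skin, and 369 of these genes had an SD above 1 in lesional skin against 38 in WT skin. Lesional replicate 2 lay above all WT libraries for 3217 genes (21.5% of those tested) and below them for 2955 (19.7%). For lesional replicate 5 the counts were 2371 (15.8%) and 2300 (15.4%), and for lesional replicate 8 they were 1883 (12.6%) and 1996 (13.3%). Lesional replicate 11 had the most, with 4345 genes above (29.0%) and 4555 below (30.4%), and lesional replicate 14 had 3454 (23.1%) and 3483 (23.3%).

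**Figure D1:**
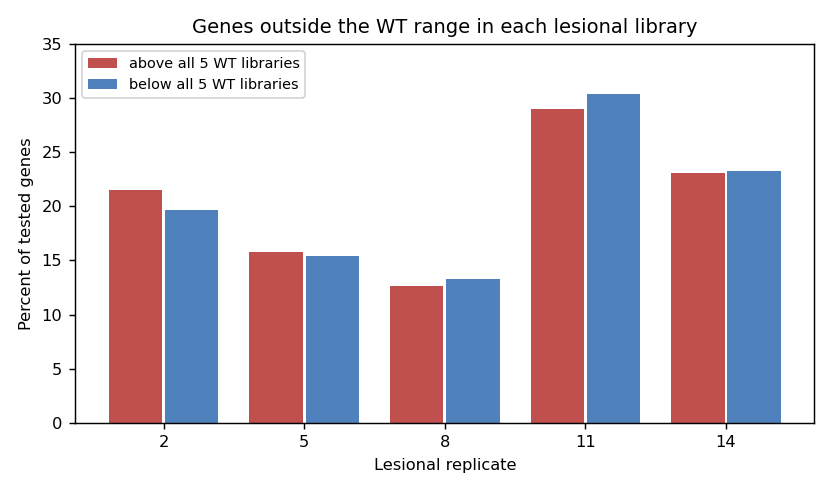
Percent of the 14979 tested genes that lay above (red) or below (blue) all 5 WT libraries, for each lesional replicate on the horizontal axis. Replicate 11 reached 29.0% and 30.4%, and replicate 8 had the lowest shares at 12.6% and 13.3%.

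The size of the difference separated the libraries further. On a scale of CPM + 1, 95 genes were at least 4-fold above the highest WT library in lesional replicate 2 and 200 in lesional replicate 11, and the count was 0 in each of lesional replicates 5, 8 and 14. Genes at least 4-fold below the lowest WT library numbered 2, 1, 1, 73 and 72. Most results that follow are therefore given library by library, and list medians are given again without lesional replicates 2 and 11. The study describes the lesions as focal. The labels give neither the stage of a lesion nor the amount of lesional skin in each piece, so a lesional mean averages over pieces whose content is not known. Counts of list members at an unadjusted p under 0.05 are read beside the 3.67% of all genes that were higher and the 1.64% that were lower at that p, and counts of members above or below all WT libraries beside each library's share of all genes. In whole skin, fewer cells of a type and less RNA per cell cannot be told apart.

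Promoter stretches of 5 genes are shown because they hold motifs of factors that are known to act on IFN-induced and on epidermal genes. Each is the 120 bases before a RefSeq transcription start in GRCm38.p6, in the direction of transcription. In the first 3, from the IFN-induced genes, capitals mark matches to the IFN-stimulated response element (ISRE, searched as GAAANNGAAA on both strands), to which the complex with STAT2 and IRF9 binds. In *Sprr1b* and *Lor*, a small proline-rich protein gene and the loricrin gene of the cornified envelope, capitals mark matches to the AP-1 motif TGANTCA.
Ifit1: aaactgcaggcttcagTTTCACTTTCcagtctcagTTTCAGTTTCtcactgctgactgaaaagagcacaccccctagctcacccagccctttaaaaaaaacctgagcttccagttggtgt
Ddx60: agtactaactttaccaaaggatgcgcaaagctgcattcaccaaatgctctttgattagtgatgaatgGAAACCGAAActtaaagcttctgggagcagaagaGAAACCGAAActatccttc
Gbp7: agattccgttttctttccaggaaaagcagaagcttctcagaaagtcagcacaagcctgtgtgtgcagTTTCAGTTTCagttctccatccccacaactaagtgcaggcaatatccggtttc
Sprr1b: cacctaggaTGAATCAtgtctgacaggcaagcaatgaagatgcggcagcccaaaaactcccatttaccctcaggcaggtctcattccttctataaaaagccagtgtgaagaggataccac
Lor: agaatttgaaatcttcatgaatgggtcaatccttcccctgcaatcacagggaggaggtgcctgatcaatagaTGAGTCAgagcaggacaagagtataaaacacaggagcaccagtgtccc
The stretches lie at chr19:34640769-34640888 (+ strand), chr8:61927967-61928086 (+ strand), chr3:142530216-142530335 (+ strand), chr3:92438780-92438899 (− strand) and chr3:92083143-92083262 (− strand). *Ifit1* and *Ddx60* held 2 ISRE matches each in these bases and *Gbp7* held 1. Over all RefSeq windows, 746 of 32851 (2.27%) held an ISRE match in the 200 bases before the start and 1800 (5.48%) an AP-1 match. Of the windows found for the type I IFN list, 12 of 53 held an ISRE match, as did 7 of 14 for the IFN-γ list and 0 of 19 for the stress keratin list, whereas 9 of those 19 and 10 of 46 windows of differentiated epidermis genes held an AP-1 match. Windows were found for only 42 of 57, 11 of 15 and 17 of 25 tested members of the first 3 lists, so a comparison of those lists is void, and a match is a description of letters.

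The type I IFN-induced genes, which act against viruses at several steps, were higher in lesional skin in 55 of the 57 tested members (65 listed), and 41 of them were higher at an unadjusted p under 0.05 against 3.67% of all genes. Their median log2 fold change was 1.23, beside −0.002 for all genes tested. The 57 included 7 that passed the count filter only through the lesional libraries. In this group lesional replicates 11 and 2 lay above all WT libraries for 54 and 47 members, and lesional replicates 14, 8 and 5 for 34, 17 and 8, against 29.0%, 21.5%, 23.1%, 12.6% and 15.8% of all genes in the same order. The 8 of 57 in replicate 5 are thus not above the share of all genes in that library. Without lesional replicates 2 and 11, 43 of the 50 members then tested were higher, with a median of 0.37, and 10 of them were at an unadjusted p under 0.05, where 209 of 14342 genes (1.46%) were higher at that p.

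*Rtp4*, a receptor transporter protein that is induced by IFN and lies on chromosome 16 (23520291 to 23614222, + strand, GRCm38, GENCODE), was counted at 5.44, 6.101, 2.68, 4.64 and 7.51 CPM in WT and 74.9, 8.704, 12.7, 165 and 14.6 CPM in lesional skin. The lowest lesional value, in replicate 5, lay above the highest WT value (log2 fold change 3.36 ± 0.91, SE, unadjusted p = 0.00506). Replicates 11 and 2 carried most of the difference, and without them the log2 fold change was 1.17 ± 0.34 (SE). *Ifi35*, an IFN-induced leucine zipper protein on chromosome 11 (101448407 to 101458698, + strand), was counted at 9.33, 9.59, 8.48, 5.06 and 6.76 CPM in WT and 19.1, 9.73, 11.9, 31.6 and 15.6 CPM in lesional skin. *Bst2* encodes tetherin, which holds budding virus particles at the cell surface, lies on chromosome 8 (71534255 to 71537456, − strand) and was counted at 3.11, 3.49, 4.02, 2.53 and 3.75 CPM in WT and 15.9, 5.63, 5.97, 59.2 and 4.86 CPM in lesional skin. In both genes the groups again did not overlap in CPM, but raw counts did. *Ifi35* had 19 counts in lesional replicate 5 and 24 in WT replicate 1, and *Bst2* had 10 in both lesional replicate 14 and WT replicate 13. The log2 fold changes were 1.16 ± 0.32 and 2.41 ± 0.73 (SE). Without lesional replicate 11 that of *Bst2* was 1.25, and without replicates 2 and 11 they were 0.66 ± 0.30 and 0.69 ± 0.38. The 2-sided exact permutation test of log2 CPM gave the smallest possible p, 0.00794, for each of the 3 genes. This p follows from the non-overlap and is no separate support. The exons of *Rtp4* overlap those of a predicted gene on the same strand, and reads were counted for each overlapping gene.

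The sensor and effector genes overlapped with WT in 1 or more lesional libraries. *Ddx60*, a helicase that promotes sensing of viral RNA, was counted at 8.55, 3.92, 8.93, 7.597 and 9.76 CPM in WT and 54.9, 8.19, 14.7, 100.4 and 26.3 CPM in lesional skin, where lesional replicate 5 lay inside the WT range. *Ifit1*, which binds foreign RNA ends, was counted at 2.33, 1.31, 5.802, 5.49 and 2.25 CPM in WT and 53.99, 9.22, 5.57, 174 and 5.84 CPM in lesional skin. *Oasl2*, an oligoadenylate synthetase-like protein, was counted at 8.55, 5.23, 7.14, 7.597 and 12.8 CPM in WT and 127, 9.73, 7.17, 332 and 25.3 CPM in lesional skin. Lesional replicate 14 was above WT in *Ddx60* and *Oasl2*, and its *Ifit1* value differed from the highest WT value by under 1 CPM. The log2 fold changes were 2.38 ± 0.63, 3.84 ± 1.18 and 3.58 ± 1.13 (SE). With lesional replicate 11 left out those of *Ifit1* and *Oasl2* were 2.44 and 2.34, and with replicates 2 and 11 left out the 3 values were 1.07 ± 0.36, 0.99 ± 0.47 and 0.74 ± 0.39. *Ifi44*, an IFN-induced protein of the cytoplasm, was counted at 3.499, 2.18, 0.893, 0.844 and 3.75 CPM in WT and 79.9, 6.66, 1.59, 218 and 5.84 CPM in lesional skin. *Ifitm3*, which blocks entry of viruses at endosomes and was the member with the highest level, was counted at 249, 263, 297, 265 and 315 CPM in WT and 673, 296, 356, 1206 and 463 CPM in lesional skin. Its lesional values exceeded WT in 4 of 5 libraries (log2 fold change 1.11 ± 0.33, SE), and the log2 fold change was 0.69 without replicate 11 and 0.42 without replicates 2 and 11.

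Transcription factors and regulators of the IFN response were mostly highest in lesional replicates 11 and 2. *Irf9*, the DNA-binding subunit of the complex that binds the ISRE, was counted at 60.7, 52.7, 38.8, 57.8 and 48.8 CPM in WT and 164, 51.7, 74.5, 210.4 and 98.2 CPM in lesional skin. *Irf7*, which amplifies type I IFN production, was counted at 3.499, 3.49, 3.12, 5.49 and 2.63 CPM in WT and 21.3, 5.12, 4.38, 55.7 and 9.24 CPM in lesional skin. In both genes lesional replicate 11 was highest and replicate 2 was second, and 1 or 2 of the other libraries lay inside the WT range. Log2 fold changes were 1.21 ± 0.33 and 2.37 ± 0.70 (SE), and 0.53 ± 0.20 and 0.76 ± 0.41 without lesional replicates 2 and 11. That of *Irf7* was 1.45 without replicate 11 alone. *Usp18*, which removes ISG15 and damps the receptor, was counted at 3.499, 4.79, 3.57, 1.69 and 3.75 CPM in WT and 18.6, 3.58, 7.17, 43.2 and 8.27 CPM in lesional skin. *Apol7a*, an apolipoprotein L gene, differed in order, with 5.44, 7.84, 3.57, 1.69 and 6.38 CPM in WT and 13.6, 3.07, 15.1, 20.1 and 22.9 CPM in lesional skin, so that lesional replicate 14 was highest and replicate 5 lay inside the WT range. *Ifnb1*, the gene of IFN-β itself, had 0 counts in all 10 libraries, and *Ifng* had 1 count, in lesional replicate 11. At a floor of 3 counts per library neither gene could be compared at this depth.

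**Figure D2:**
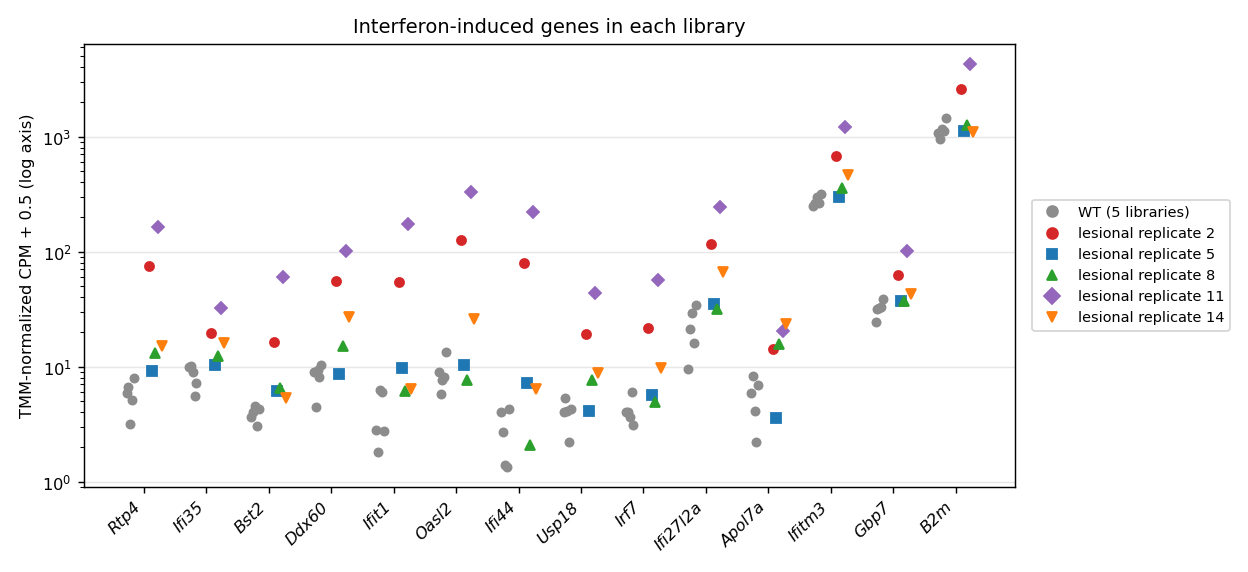
CPM + 0.5 on a log axis for 14 IFN-induced or antigen presentation genes, with WT libraries as grey points on the left and each lesional replicate as its own symbol on the right of each gene. Replicates 11 and 2 stand highest for most genes, and Rtp4, Ifi35 and Bst2 show no overlap with WT.

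IFN-γ-induced GTPases and regulators, which act on intracellular microbes, were higher in 15 of 15 tested members (22 listed, none of the 15 passing the filter only through lesional libraries), and 4 of them were higher at an unadjusted p under 0.05, against 3.67% of all genes. The median log2 fold change was 0.82. *Gbp7*, a guanylate-binding protein, was counted at 23.7, 30.9, 31.7, 32.5 and 37.9 CPM in WT and 61.7, 36.4, 37.03, 99.9 and 42.3 CPM in lesional skin, and *Cd274*, the gene of the checkpoint ligand PD-L1, at 14.4, 7.41, 7.14, 13.5 and 7.88 CPM in WT and 33.6, 11.8, 6.37, 66.3 and 19.5 CPM in lesional skin. Lesional replicates 2 and 11 lay above all WT libraries for 13 and 14 of the 15 members, replicates 5, 8 and 14 for 0, 1 and 5. Without replicates 2 and 11 the median was 0.0021, with 7 of 14 members higher. The type I IFN list had a median of 0.37 without them, and the 2 lists were not compared by a test.

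MHC class I presentation genes were higher in 14 of 15 tested members, 7 at an unadjusted p under 0.05, with a median log2 fold change of 0.73. *B2m*, the light chain of every class I molecule, was counted at 1086, 945, 1162, 1116 and 1452 CPM in WT and 2613, 1126, 1269, 4274 and 1089.9 CPM in lesional skin. *H2-K1*, a class I heavy chain, was counted at 411, 379.6, 468, 420.3 and 437 CPM in WT and 1024, 394, 529.97, 1384 and 378 CPM in lesional skin. Lesional replicates 2 and 11 were above WT and the other 3 libraries lay inside or near the WT range in both genes, and the log2 fold changes without replicates 2 and 11 were 0.010 ± 0.16 and 0.035 ± 0.15 (SE). Over the list, the median without these replicates was −0.09. H2 genes are a family of similar sequences and their counts could be split among copies. MHC class II genes, which present extracellular antigen, were higher in 5 of 7 with a median of 0.17, and −0.0079 without these replicates, and 0 of 7 had an unadjusted p under 0.05. *Cd74*, the invariant chain, was counted at 188, 179.99, 200.4, 165 and 218 CPM in WT and 246, 157, 240.5, 228 and 219 CPM in lesional skin, with 4 of 5 lesional values above the highest WT value and replicate 5 below the lowest.

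Stress keratins and hyperplasia genes had the largest median difference of the lists, 3.63 on the log2 scale. All 25 tested members (31 listed) were higher, 20 at an unadjusted p under 0.05, and 9 of the 25 passed the filter only through the lesional libraries. Lesional replicates 2 and 11 lay above all WT libraries for 24 and 25 of the members, and replicates 5, 8 and 14 for 2, 3 and 2. The higher level of the group was thus held by lesional replicates 2 and 11. Without them, 15 members could be tested, 4 were higher and the median was −0.38. WT replicate 1 had the highest WT list score, 0.72 above the WT mean, with −0.31 to 0.04 in the other WT libraries. Lesional replicates 5, 8 and 14 stood at −0.13, −0.25 and 0.004, in the range of those other WT libraries. A fit that also leaves out WT replicate 1 was not run.

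*Krt6b*, a keratin of thickened and wounded epidermis, was counted at 17.1, 1.74, 3.12, 1.27 and 1.88 CPM in WT and 3531, 2.56, 1.19, 8745 and 4.86 CPM in lesional skin. *Krt6a*, its partner at a near-identical locus, was counted at 1192, 472, 408, 261 and 382 CPM in WT and 4973, 324, 227, 15431 and 392 CPM in lesional skin, so that WT replicate 1 already held the highest WT value. *Krt16*, the type I keratin that pairs with them, was counted at 91.4, 8.28, 12.1, 12.2 and 14.3 CPM in WT and 900.2, 7.17, 12.3, 2876 and 22.4 CPM in lesional skin. In these genes lesional replicates 5, 8 and 14 lay below WT replicate 1. Log2 fold changes were 8.90 ± 2.81, 2.97 ± 1.29 and 4.78 ± 1.86 (SE), and without lesional replicates 2 and 11 they were −0.85 ± 0.93, −0.80 ± 0.54 and −1.004 ± 1.03. Reads of *Krt6a* and *Krt6b* may be shared between the 2 copies. *Gjb2*, the gene of the gap junction protein connexin 26, was counted at 24.1, 6.101, 4.91, 2.95 and 6.01 CPM in WT and 529, 3.58, 6.37, 1176 and 1.95 CPM in lesional skin. *Sprr1b*, a cornified envelope precursor, was counted at 9.72, 0.436, 1.34, 1.69 and 0.751 CPM in WT and 400.2, 1.02, 0, 1216 and 2.43 CPM in lesional skin. *Sprr2d*, of the same family, had 1, 0, 1, 0 and 1 counts in WT and 611, 7, 0, 797 and 0 counts in lesional skin, so no fold is given. *Krt17*, which marks activated keratinocytes and follicles, was counted at 896, 433, 659, 382 and 554 CPM in WT and 3477, 392, 541, 4855 and 549.6 CPM in lesional skin, with only lesional replicates 2 and 11 above WT.

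**Figure D3:**
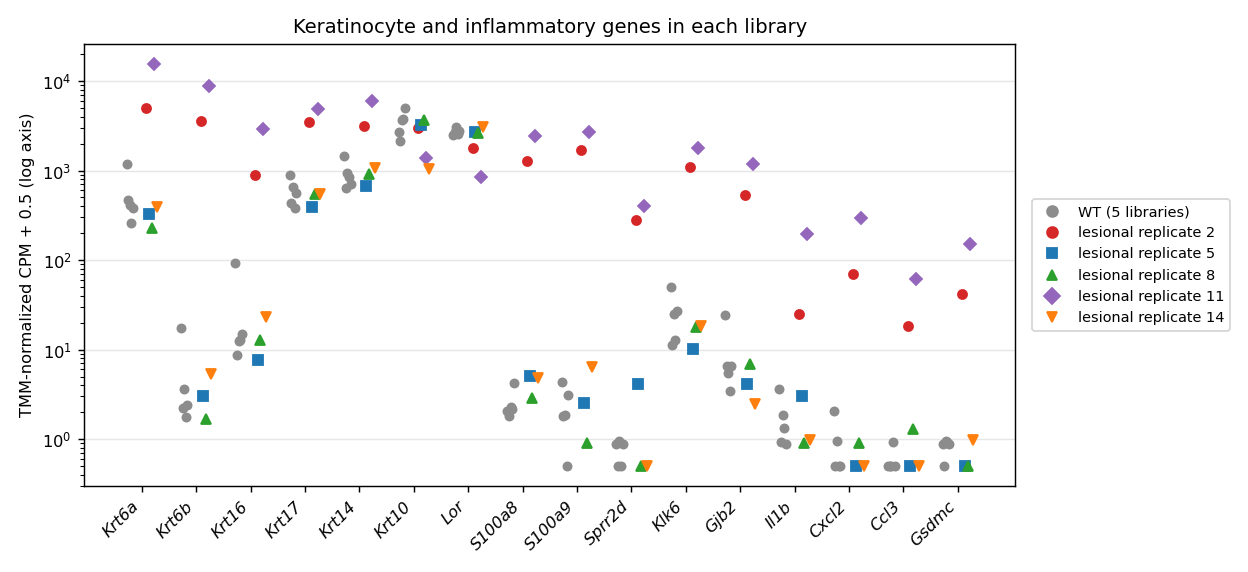
CPM + 0.5 on a log axis for 16 keratinocyte and inflammatory genes, with WT libraries in grey on the left and each lesional replicate as its own symbol on the right of each gene. Lesional replicates 2 and 11 stand apart from WT in most genes and replicates 5, 8 and 14 lie within or near the WT values.

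Antimicrobial and alarmin genes were higher in 16 of 23 tested members (36 listed), 10 at an unadjusted p under 0.05, with 6 members that passed the filter only through lesional skin. The other 7 were lower, 1 at that p, with log2 fold changes down to −2.28. Lesional replicates 2 and 11 lay above all WT libraries for 16 members each and below them for 3 and 4. The median log2 fold change was 1.10. *S100a8*, a subunit of calprotectin, the calcium-binding alarmin of keratinocytes and neutrophils, was counted at 1.56, 1.31, 1.79, 1.69 and 3.75 CPM in WT and 1281, 4.61, 2.39, 2411 and 4.38 CPM in lesional skin. Its partner *S100a9* was counted at 3.89, 1.31, 1.34, 0 and 2.63 CPM in WT and 1706, 2.05, 0.398, 2711 and 5.84 CPM in lesional skin. Both were at a few CPM in WT and in lesional replicates 5, 8 and 14, and far higher in lesional replicates 2 and 11. *Lcn2*, the iron-chelator lipocalin-2, was counted at 1.56, 0.872, 0.893, 0 and 1.13 CPM in WT and 29.04, 1.02, 0.796, 38.2 and 0 CPM in lesional skin. *Stfa3*, a stefin that inhibits cathepsins, was counted at 2.33, 5.67, 8.03, 3.38 and 2.25 CPM in WT and 624, 1.54, 6.77, 2311 and 4.38 CPM in lesional skin. Without lesional replicates 2 and 11 the list's median was −0.12, with 4 of 13 members higher. With single libraries left out it ran from 0.38 (without lesional replicate 11) to 2.23 (without WT replicate 1), and it was 1.78 without lesional replicate 2. *Uox*, which is no member of a list and encodes urate oxidase, had 0 counts in all 5 WT libraries and 107, 0, 0, 126 and 0 counts in lesional skin. *Serpinb3a* and *Teddm3* showed the same pattern, with 48 and 197 counts of *Serpinb3a* and 79 and 248 counts of *Teddm3* in lesional replicates 2 and 11 and 0 elsewhere, and with 0 counts in WT no fold is given for any of the 3.

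Cytokine and chemokine genes were higher in 21 of 25 tested members (51 names, 47 in the table), 15 at an unadjusted p under 0.05, and 9 passed the filter only through lesional libraries. The median log2 fold change was 1.48, and 0.0089 without lesional replicates 2 and 11, where 14 members could be tested. *Il1b*, the IL-1β gene of inflammasome output, was counted at 3.11, 0.436, 1.34, 0.844 and 0.375 CPM in WT and 24.5, 2.56, 0.398, 197 and 0.486 CPM in lesional skin. *Cxcl2*, a chemokine of neutrophils, was counted at 1.56, 0, 0.446, 0 and 0 CPM in WT and 68.97, 0, 0.398, 294 and 0 CPM in lesional skin. *Ccl3*, a chemokine of monocytes and T cells, had 0, 0, 0, 1 and 0 counts in WT and 39, 0, 2, 120 and 0 counts in lesional skin. Lesional replicate 11 was highest in each and replicate 2 second, and the other 3 lesional libraries held few counts. *Tnf*, whose product starts the signalling that OTULIN regulates, was counted at 1.56, 0.872, 0, 1.69 and 0.375 CPM in WT and 3.18, 0.512, 1.59, 11.5 and 1.95 CPM in lesional skin. *Cxcl10* and *Cxcl9*, chemokines induced by IFN-γ, were counted at 5.83, 0.436, 0.893, 3.38 and 8.26 CPM in WT and 17.7, 4.096, 5.57, 78.8 and 3.404 CPM in lesional skin, and at 3.89, 3.49, 1.79, 5.91 and 5.26 CPM in WT and 17.7, 4.096, 4.38, 61.8 and 6.32 CPM in lesional skin. The log2 fold changes were 5.12 ± 1.83 for *Il1b*, 1.97 ± 0.80 for *Tnf*, 2.48 ± 1.04 for *Cxcl10* and 2.18 ± 0.79 for *Cxcl9* (SE). They rest on lesional replicates 2 and 11, and most on 11. Without replicate 11 they were 2.46 for *Il1b*, 0.999 for *Cxcl10* and 0.985 for *Cxcl9*. *Tnf* was then below the count filter, as it also was without lesional replicate 2 or without WT replicate 1. With replicates 2 and 11 left out those of *Cxcl10* and *Cxcl9* were 0.19 ± 0.64 and 0.26 ± 0.43.

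*Il1f6*, the mouse gene of IL-36α of barrier epithelium, was counted at 1.56, 1.31, 0.446, 1.27 and 2.25 CPM in WT and 16.8, 3.07, 2.39, 26.1 and 0.486 CPM in lesional skin. *Ccl27a*, a chemokine of resting keratinocytes that attracts skin T cells, was lower, at 24.9, 23.1, 37.9, 21.5 and 48.4 CPM in WT and 19.1, 14.3, 13.1, 18.6 and 26.3 CPM in lesional skin (log2 fold change −0.77 ± 0.26, SE, unadjusted p = 0.0109). *Il6* had 1, 1, 0, 6 and 0 counts in lesional skin and 0 in WT, *Cxcl3* had 3, 0, 0, 15 and 0 counts in lesional skin and 0 in WT, and *Il17a*, *Il17f* and *Il22* had 0 counts in all 10 libraries. These genes are below the depth at which lesional and WT skin could be compared.

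Basal epidermal genes were higher in 6 of 15 tested members, with a median log2 fold change of −0.05. With lesional replicates 2 and 11 left out, 0 of 15 were higher and the median was −0.15. *Krt14*, the keratin whose promoter drove Cre, was counted at 1458, 645, 932, 842 and 708 CPM in WT and 3134, 677, 919.8, 5941 and 1070.5 CPM in lesional skin. *Krt15*, a keratin of basal and bulge cells, was counted at 2806, 3006, 2460.3, 3414 and 3314 CPM in WT and 1167, 3076, 2065, 638 and 3281 CPM in lesional skin, with the lowest values in lesional replicates 11 and 2. Of the differentiated and cornified epidermis list, 37 of 50 tested members were higher and 15 were so at an unadjusted p under 0.05, with a median of 0.31, and 5 of the 50 passed the filter only through the lesional libraries. *Krt10*, a keratin of the suprabasal layers, was counted at 2677, 2141, 3681, 3773 and 5013 CPM in WT and 2958, 3248, 3664, 1371 and 1049.5 CPM in lesional skin. *Lor* was counted at 2503, 2714, 3086, 2587 and 2738 CPM in WT and 1769.5, 2672, 2589, 855 and 3062 CPM in lesional skin, with lesional replicates 2 and 11 below all WT libraries. *Klk6*, a kallikrein protease, was counted at 49.8, 10.9, 24.5, 12.2 and 26.3 CPM in WT and 1103, 9.73, 17.5, 1788 and 17.995 CPM in lesional skin. *Lce3b*, a late cornified envelope gene of wounded epidermis, had 1, 0, 0, 0 and 0 counts in WT and 169, 3, 0, 174 and 0 counts in lesional skin. The list thus held genes that were higher (the Lce3 genes, *Klk6*) and genes that were lower (*Krt10*, *Lor*) in lesional replicate 11, and the list's median without replicates 2 and 11 was 0.02.

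**Figure D4:**
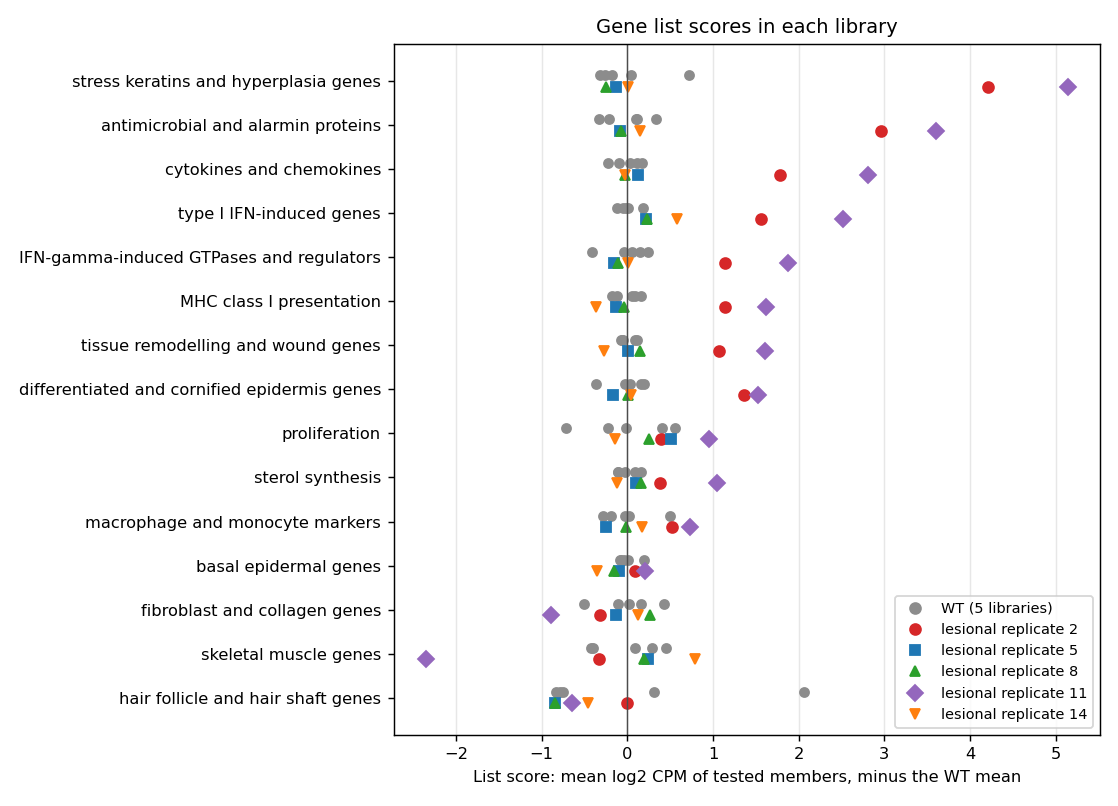
Score of 15 gene lists in each library, as the mean log2 CPM of the tested members minus the WT mean (horizontal axis), with WT libraries in grey and each lesional replicate as its own symbol. Lesional replicates 2 and 11 stand at 4.21 and 5.15 for stress keratins, and lesional replicate 14 at 0.58 for type I IFN genes, above every WT library.

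Proliferation genes were higher in 30 of 34 tested members, 4 at an unadjusted p under 0.05, with a median log2 fold change of 0.37. *Mki67*, the Ki-67 antigen of cycling cells, was counted at 15.9, 56.2, 31.7, 48.1 and 27.03 CPM in WT and 59.4, 71.2, 50.97, 62.3 and 36.5 CPM in lesional skin. *Cdc20*, an activator of the anaphase-promoting complex, was counted at 11.7, 15.3, 5.36, 10.6 and 11.3 CPM in WT and 26.3, 15.9, 14.3, 47.7 and 13.1 CPM in lesional skin, with 3 of the 5 lesional values within or near the WT range. Lesional replicate 11 lay above all WT libraries for 25 of 34 members. Without lesional replicates 2 and 11 the median was 0.15. Without WT replicate 1, which had the lowest proliferation score, it was 0.21. *Ube2c*, 1 member, shares reads with the muscle gene *Tnnc2* on the opposite strand and was left unread.

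Of 33 tested cell death genes, 24 were higher and 4 were so at an unadjusted p under 0.05, with a median log2 fold change of 0.14, and 3 of the 33 passed the filter only through the lesional libraries. Lesional replicates 11 and 2 lay above all WT libraries for 20 and 14 members, and replicates 5, 8 and 14 for 4, 5 and 8, which is near the 15.8%, 12.6% and 23.1% of all genes in these libraries. Replicate 14 lay below all WT libraries for 11 members. Without replicates 2 and 11 the direction turned, with 9 of 30 members higher and a median of −0.14. *Ripk1* was counted at 43.9, 43.6, 60.3, 42.6 and 55.2 CPM in WT and 60.8, 48.6, 53.8, 42.7 and 42.3 CPM in lesional skin. *Ripk3*, the kinase of necroptosis, was counted at 2.72, 1.31, 6.695, 2.95 and 2.25 CPM in WT and 3.18, 2.05, 1.19, 5.02 and 2.43 CPM in lesional skin, a level of a few counts per library. *Mlkl*, the pore-forming effector of necroptosis, was counted at 4.28, 4.36, 1.79, 3.798 and 3.75 CPM in WT and 4.54, 2.05, 1.19, 14.1 and 0.486 CPM in lesional skin, with lesional replicate 11 highest. *Tnfrsf1a*, the gene of TNF receptor 1, was counted at 94.9, 97.2, 138, 133 and 154 CPM in WT and 136, 100.4, 130.2, 182 and 131 CPM in lesional skin. *Fadd*, the adaptor of caspase-8, was counted at 7.39, 12.2, 9.37, 5.91 and 9.76 CPM in WT and 12.3, 9.73, 13.9, 6.53 and 14.6 CPM in lesional skin. In all of these the groups overlapped. *Casp8*, the initiator caspase of apoptosis that also cleaves RIPK1, was counted at 10.5, 10.5, 13.4, 13.5 and 13.1 CPM in WT and 15.4, 14.3, 16.7, 25.6 and 17.995 CPM in lesional skin, with every lesional value above the WT values (log2 fold change 0.56 ± 0.22, SE, unadjusted p = 0.0213). It is among the 63 genes that did not overlap, which is 0.421% of all genes. *Casp6*, an executioner caspase, was counted at 28.4, 20.9, 23.2, 24.1 and 25.5 CPM in WT and 47.2, 29.2, 27.1, 56.7 and 35.99 CPM in lesional skin (log2 fold change 0.68 ± 0.21, SE), with a log2 fold change of 0.32 ± 0.19 without replicates 2 and 11. *Gsdmc*, a gasdermin whose cleaved form opens pores, had 1, 0, 1, 1 and 1 counts in WT and 91, 0, 0, 302 and 1 counts in lesional skin.

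Of 28 tested genes of the linear ubiquitin machinery and NF-κB regulators, 22 were higher, 2 of them at an unadjusted p under 0.05, with a median of 0.12. Lesional replicates 11 and 2 lay above all WT libraries for 18 and 12 of the 28. Without these replicates 9 of 26 were higher and the median was −0.14. *Bcl3*, an atypical IκB protein, was counted at 3.11, 1.31, 1.79, 2.53 and 4.88 CPM in WT and 11.8, 1.02, 3.58, 48.7 and 3.89 CPM in lesional skin, and *Traf2*, an adaptor of TNF receptor 1, at 3.11, 3.05, 4.02, 8.86 and 3.75 CPM in WT and 5.898, 3.58, 11.9, 10.5 and 9.73 CPM in lesional skin. *Myd88*, the adaptor of Toll-like and IL-1 receptors, was counted at 33.8, 26.1, 29.01, 29.96 and 45.05 CPM in WT and 62.2, 28.2, 32.7, 105 and 33.6 CPM in lesional skin, with lesional replicates 2 and 11 above WT. Its log2 fold change was 0.67 ± 0.34 (SE), and −0.065 ± 0.21 without these replicates.

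The markers of immune cells were measured in the same libraries, and their part in the other results was not tested. Macrophage and monocyte markers were higher in 13 of 18 tested members, 3 at an unadjusted p under 0.05, and lower at that p in 1, with a median log2 fold change of 0.22, and −0.09 with 8 of 18 higher without lesional replicates 2 and 11. Their summed level was 561 to 1134 CPM in WT and 679 to 1028 CPM in lesional skin. *Aif1*, a macrophage and dendritic cell marker, was counted at 5.44, 9.59, 7.14, 5.91 and 6.01 CPM in WT and 16.3, 10.2, 10.8, 25.1 and 15.6 CPM in lesional skin, without overlap (log2 fold change 1.19 ± 0.29, SE, unadjusted p = 0.00107). *Adgre1*, the gene of F4/80, was counted at 18.7, 9.59, 11.6, 12.2 and 23.3 CPM in WT and 19.96, 6.66, 12.7, 18.1 and 13.1 CPM in lesional skin, in the WT range except in replicate 5. *Cd14*, the co-receptor for lipopolysaccharide, was counted at 2.33, 2.61, 2.68, 3.798 and 3.003 CPM in WT and 7.26, 1.54, 2.79, 51.2 and 3.89 CPM in lesional skin, and only lesional replicates 2, 11 and 14 lay above WT. Of 16 neutrophil genes 4 were tested, 3 were higher, and the median was 1.06, beside −0.16 over 3 tested without lesional replicates 2 and 11. *Ly6g* and *Csf3r*, which define neutrophils, had 0 counts in all 10 libraries, and *Cxcr2* had 11, 2, 0, 11 and 0 counts in lesional skin and 0 in WT. The summed level of the 4 was 54.5 to 93.1 CPM in WT and 53.4 to 228 CPM in lesional skin.

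T cell markers were higher in 7 of 11, 4 at an unadjusted p under 0.05, with a median of 0.11, which moved to 0.59 when no gene was filtered and was 0.22 without lesional replicates 2 and 11. Of the 11, 2 passed the filter only through the lesional libraries. Their summed level was 138 to 189 CPM in WT and 167 to 227 CPM in lesional skin. *Trbc2*, a T cell receptor β chain gene, was counted at 17.1, 18.3, 24.1, 25.3 and 24.8 CPM in WT and 27.7, 30.2, 27.9, 50.2 and 25.3 CPM in lesional skin, and *Foxp3*, of regulatory T cells, at 5.44, 8.72, 10.7, 7.597 and 7.13 CPM in WT and 12.3, 12.3, 8.36, 13.6 and 13.6 CPM in lesional skin. Langerhans and dendritic cell markers were higher in 6 of 9, with 0 of 9 at an unadjusted p under 0.05, and mast cell markers in 4 of 6, with 0 of 6. Their medians were 0.13 and 0.17, and −0.16 and 0.20 without lesional replicates 2 and 11.

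The stromal markers were mostly lower. Of the fibroblast and collagen genes 15 of 20 were lower, with a median of −0.19 and 0 of 20 at an unadjusted p under 0.05. Lesional replicate 11 lay below all WT libraries for 18 of 20. Their summed level was 33536 to 82310.1 CPM in WT and 20996 to 68402.5 CPM in lesional skin, and without replicates 2 and 11 the median was 0.01. Endothelial markers were lower in 10 of 12, with a median of −0.18, and lesional replicate 11 lay below WT for 10 of 12. Without replicates 2 and 11 their median was −0.028. *Kdr*, the VEGF receptor 2 of endothelium, was counted at 63.4, 52.3, 59.4, 49.4 and 64.6 CPM in WT and 42.2, 41.5, 49.4, 27.1 and 62.3 CPM in lesional skin. *Lyve1*, of lymphatic vessels and some macrophages, was counted at 115, 157, 99.98, 90.7 and 196 CPM in WT and 103, 109, 89.6, 46.2 and 96.3 CPM in lesional skin, with lesional replicate 11 lowest. The 19 adipocyte genes were higher in 7, with a median of −0.09, but in 14 with a median of 0.10 without lesional replicates 2 and 11, and *Fabp4*, a fatty acid-binding protein of fat cells, was counted at 1441, 1126, 824, 1250.1 and 1598 CPM in WT and 740.5, 1212, 954, 656 and 511 CPM in lesional skin. The 6 tested erythrocyte genes were all higher, with a median of 0.22 and 0 of 6 at an unadjusted p under 0.05. Mitochondrially encoded genes had a median of 0.03 over 7 tested. The medians of these lists were 0.42 and 0.06 without lesional replicates 2 and 11.

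Hair follicle and hair shaft genes were lower in 23 of 26 tested members, 6 at an unadjusted p under 0.05, with a median of −0.80. This rests on WT replicate 1, whose list score exceeded the WT mean by 2.07, and without it the median was −0.02 over 19 tested members. It was −1.34 without lesional replicates 2 and 11. *Krt71*, an inner root sheath keratin, was counted at 98.8, 2.18, 0, 0 and 7.13 CPM in WT and 1.81, 0, 0, 1.004 and 0.973 CPM in lesional skin. *Krtap3-2*, a hair keratin-associated protein, was counted at 80.1, 42.3, 39.7, 50.6 and 42.4 CPM in WT and 25.4, 41.5, 37.03, 10.5 and 28.7 CPM in lesional skin, where lesional replicate 5 lay inside the WT range. Melanocyte pigment genes were lower in 5 of 6, with a median of −0.15, but higher in 5 of 6 with a median of 0.21 without lesional replicates 2 and 11, and 1 of the 6 passed the filter only through the lesional libraries. *Mlana* was counted at 1.94, 2.18, 1.79, 1.69 and 2.25 CPM in WT and 2.27, 3.07, 4.78, 3.51 and 5.35 CPM in lesional skin. Its values do not overlap in CPM, but lesional replicate 2 held 5 counts and WT replicate 13 held 6, so the raw counts overlapped. Sebaceous gland genes were higher in 8 of 17, with a median of −0.0004, and −0.15 without lesional replicates 2 and 11.

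Genes of lipid synthesis differed less in size than the type I IFN, stress keratin and cytokine lists. The groups did not overlap in 2 of 17 tested fatty acid genes and in 0 of 22 tested sterol synthesis genes, beside 0.421% of all genes. Of the sterol synthesis genes 20 of 22 tested were higher, 7 at an unadjusted p under 0.05, with a median of 0.30, and 0.06 without lesional replicates 2 and 11. *Msmo1*, a demethylase of the pathway, was counted at 165, 178, 189, 191 and 157 CPM in WT and 249, 227, 197, 371 and 187 CPM in lesional skin. *Acat2*, which condenses acetyl-CoA at the entry to the pathway and was in neither list, was counted at 26.8, 30.9, 32.1, 29.96 and 30.03 CPM in WT and 38.1, 44.03, 40.2, 63.8 and 46.2 CPM in lesional skin (log2 fold change 0.63 ± 0.17, SE, unadjusted p = 0.00219), and no lesional value lay within the WT values. Of the fatty acid genes 13 of 17 were higher, 3 at an unadjusted p under 0.05, with a median of 0.14 and 0.18 without replicates 2 and 11. *Acaca*, acetyl-CoA carboxylase, the rate-limiting enzyme, was counted at 27.6, 23.1, 30.8, 27.4 and 24.03 CPM in WT and 36.8, 37.9, 39.02, 39.7 and 54.5 CPM in lesional skin (log2 fold change 0.64 ± 0.17, SE, unadjusted p = 0.0017), and *Acly*, ATP-citrate lyase, at 66.1, 60.1, 58.02, 57.8 and 54.4 CPM in WT and 67.6, 66.6, 72.5, 101 and 77.8 CPM in lesional skin. Neither gene overlapped between groups, and lesional replicate 14 was highest in *Acaca* and replicate 11 in *Acly*. For *Acaca* the log2 fold change without replicates 2 and 11 was 0.71 ± 0.19 (SE).

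Tissue remodelling genes were higher in 17 of 22 tested members, 4 at an unadjusted p under 0.05, with a median of 0.67, and −0.14 without replicates 2 and 11, and 2 of the 22 passed the filter only through the lesional libraries. *Mmp12*, macrophage metalloelastase, was counted at 0, 0.436, 0.446, 1.27 and 1.88 CPM in WT and 21.3, 1.54, 1.99, 56.2 and 0.486 CPM in lesional skin. *Tnc*, tenascin-C of wound matrix, was counted at 23.3, 18.3, 21.9, 14.8 and 9.38 CPM in WT and 76.7, 16.4, 26.7, 71.3 and 21.9 CPM in lesional skin. Of the adhesion and stress transcription factor genes 21 of 24 were higher, 5 at an unadjusted p under 0.05, with a median of 0.40, and −0.16 without replicates 2 and 11, and 2 of the 24 passed only through those libraries. *Sfn*, the epithelial 14-3-3σ protein, was counted at 324, 293, 386, 408 and 450.5 CPM in WT and 819, 301, 349, 2192 and 530.1 CPM in lesional skin, and *Atf4*, a transcription factor of the amino acid stress response, at 199.8, 230.1, 259, 212 and 213 CPM in WT and 272, 230.4, 267, 443 and 289.9 CPM in lesional skin, with 4 of 5 lesional values above WT.

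The 29 tested genes that the study stained, measured or labelled in its heatmap were higher in 26, with a median of 1.97 and 0.22 without lesional replicates 2 and 11. Those labelled in the heatmap were chosen on these samples, so the list is not independent evidence of its direction. 19 of the 29 were higher at an unadjusted p under 0.05, and 3 passed the filter only through the lesional libraries.

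Several genes that belong to none of the sets above did not overlap between groups, most of them among those with the smallest unadjusted p. They were picked for non-overlap or a small p, so neither is evidence of a difference for them. *Tmem173*, the gene of STING, the adaptor that senses cyclic dinucleotides from cGAS, was counted at 3.11, 5.23, 4.46, 6.75 and 6.01 CPM in WT and 12.7, 7.68, 9.56, 28.1 and 11.2 CPM in lesional skin (log2 fold change 1.42 ± 0.37, SE, unadjusted p = 0.00159), with a log2 fold change of 0.88 ± 0.34 (SE) without replicates 2 and 11. *Pik3ap1*, the PI3 kinase adaptor BCAP, was counted at 1.94, 0.872, 0.893, 0.844 and 1.502 CPM in WT and 4.54, 2.05, 4.38, 16.6 and 2.43 CPM in lesional skin. *Proca1*, a cyclin A-binding protein gene, was counted at 4.67, 1.74, 1.79, 2.53 and 4.13 CPM in WT and 13.2, 7.17, 7.17, 5.52 and 8.27 CPM in lesional skin. The lesional replicate with the highest value was 11 in *Tmem173* and *Pik3ap1* and 2 in *Proca1*. The other direction held *Psap*, which encodes prosaposin, the precursor of lysosomal sphingolipid activators. It was counted at 158, 141, 137, 146 and 201 CPM in WT and 121, 107, 118, 74.8 and 95.3 CPM in lesional skin, with lesional values all below WT (log2 fold change −0.60 ± 0.16, SE, unadjusted p = 0.00214). Without lesional replicates 2 and 11 its log2 fold change was −0.56 ± 0.16 (SE). *Amn1*, a cell cycle regulator homologue, was counted at 73.9, 67.99, 55.8, 54.4 and 54.1 CPM in WT and 46.3, 35.8, 44.2, 34.6 and 43.3 CPM in lesional skin. *Gcfc2*, a splicing-related protein, was counted at 29.5, 29.6, 27.2, 24.9 and 23.7 CPM in WT and 18.6, 17.4, 20.7, 19.6 and 14.1 CPM in lesional skin. *Chrd*, the BMP antagonist chordin, was counted at 8.16, 3.49, 3.57, 5.49 and 7.13 CPM in WT and 0.454, 2.56, 2.39, 1.51 and 2.92 CPM in lesional skin. *Fgfr3*, a fibroblast growth factor receptor that acts in keratinocytes and that was chosen after its values were seen, was counted at 87.9, 81.5, 80.3, 74.3 and 81.8 CPM in WT and 63.98, 59.9, 62.1, 53.2 and 71.01 CPM in lesional skin. In these 4 genes all lesional values again lay below all WT values, by −0.58 ± 0.16 for *Amn1*, −0.57 ± 0.17 for *Gcfc2*, −1.49 ± 0.45 for *Chrd* and −0.39 ± 0.13 for *Fgfr3* on the log2 scale (SE). Of the 10 genes with the smallest unadjusted p in each direction, those not yet described were also in no list. *Shmt2*, the mitochondrial serine hydroxymethyltransferase, was counted at 24.1, 25.7, 20.98, 27.01 and 33.4 CPM in WT and 47.6, 38.9, 33.05, 58.2 and 42.3 CPM in lesional skin, where lesional replicate 8 lay below the highest WT value (log2 fold change 0.74 ± 0.19, SE), and its reads may be shared with *Ndufa4l2* on the opposite strand. *Pla2g4b*, a phospholipase A2 gene, was counted at 1.56, 2.18, 3.57, 2.95 and 3.003 CPM in WT and 15.9, 3.07, 3.98, 25.1 and 7.78 CPM in lesional skin, with lesional replicates 2, 8, 11 and 14 above WT (log2 fold change 2.05 ± 0.54, SE, and 0.88 ± 0.46 without replicates 2 and 11). *Sptbn5* overlaps it on the opposite strand with nearly the same counts (log2 fold change 1.99 ± 0.54, SE), and the reads of both cannot be told apart. *Gm20234*, an antisense transcript, had 0, 0, 1, 0 and 0 counts in WT and 39, 1, 2, 57 and 3 counts in lesional skin, so no fold is given. In the lower direction the log2 fold changes were −1.97 ± 0.53 for *Dcdc2b*, −0.67 ± 0.19 for *Fmo2*, −1.24 ± 0.37 for *5330431K02Rik*, −0.66 ± 0.20 for *Jade2*, −1.10 ± 0.33 for *Skint7* and −1.15 ± 0.35 for *Cadm2* (SE).

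**Figure D5:**
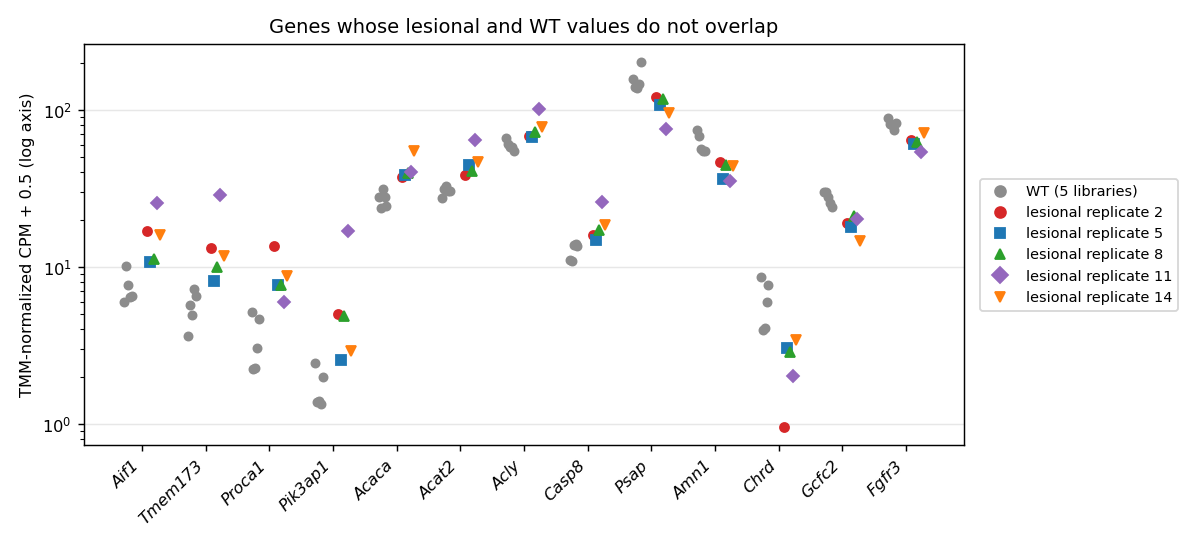
CPM + 0.5 on a log axis for 13 genes whose lesional and WT values do not overlap, with WT libraries in grey on the left and each lesional replicate as its own symbol on the right of each gene. Psap, Amn1, Chrd, Gcfc2 and Fgfr3 are lower and the other 8 are higher in lesional skin.

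Lesional skin was also set against non-lesional OTULIN E-KO skin of the same genotype, where 499 of 14873 genes (3.36%) were higher and 185 lower at an unadjusted p under 0.05, and 0 had an adjusted p under 0.05. In the 5 non-lesional libraries *Rtp4* was counted at 8.27 to 33.4 CPM with a median of 18.02, so that non-lesional skin also lay above the highest WT value, 7.51 CPM. For *Rtp4* the log2 fold change of lesional against non-lesional skin was 1.62 ± 0.89 (SE), for *S100a8* 4.81 ± 2.25, for *Krt6b* 5.74 ± 2.78, for *Krt6a* 3.50 ± 1.28, for *Acaca* 0.020 ± 0.17 and for *Psap* −0.57 ± 0.19. These values include lesional replicates 2 and 11, which held nearly all lesional counts of *S100a8* and *Krt6b*. *Acaca* was counted at 30.3 to 52.6 CPM with a median of 41.4 in non-lesional skin, as high as in lesional skin, while *Psap* was counted at 112 to 199 CPM with a median of 159, with 2 of the 5 values below the lowest WT value. *Fgfr3* was counted at 63.7 to 73.6 CPM in non-lesional skin, below every WT value. The lesional against non-lesional log2 fold change (± SE) was −0.093 ± 0.13 for it, −0.015 ± 0.15 for *Acly* and 0.26 ± 0.31 for *Proca1*. It was 0.38 ± 0.59 for *Pik3ap1*, −0.23 ± 0.15 for *Amn1*, 0.22 ± 0.19 for *Acat2* and −0.32 ± 0.18 for *Gcfc2*. Values were 0.46 ± 0.22 for *Casp8*, 0.62 ± 0.32 for *Aif1*, 0.79 ± 0.38 for *Tmem173* and −1.26 ± 0.46 for *Chrd*. The comparisons share the lesional libraries, so they are given side by side and not compared by a test.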

How the data were processed

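Skin RNA of 3-week-old mice was sequenced as QuantSeq 3′ (FWD) libraries. Per the labels and the submitters' processing notes, reads were clipped with cutadapt 2.10, mapped with Subread to GRCm38, filtered with SAMtools 1.7-2 and assigned to exons with featureCounts 2.0.1, and edgeR 3.30.3 is named. The authors deposited raw counts per gene, which were used here. Reads that overlap more than 1 gene add to each of them, and the counting parameters printed by the study name no strand option. A CPM table, each count over its library total, was not used. The study's criterion on RNA integrity does not give the value of each library. PCR copies were not removed.

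Of 55579 rows, 92 spike-in rows summed to 0 and were dropped, and 26932 of the 55487 genes had 0 counts in every library. Symbols and coordinates are from the GENCODE annotation of GRCm38, and promoter bases from RefSeq (GRCm38.p6). Genes with at least 50 counts over the 10 libraries were tested in R 4.3.3 with edgeR 4.0.16 (TMM, robust quasi-likelihood F-test, Benjamini-Hochberg adjustment over all tested genes). The SE is the absolute log2 fold change over the square root of F. A list score averages the log2 CPM of the members (prior count 2). The scripts were tested on simulated data. Counting error only is covered by the floor of 3 counts. Alternatives were DESeq2 1.42.0 (the study's tool), voomWithQualityWeights (limma 3.58.1), other filters and scalings, all 15 libraries in 1 fit, a Y-linked covariate and left-out libraries. 1 alternative, lesional against non-lesional skin without lesional replicates 2 and 11, was chosen after seeing the data. The fit of lesional against WT skin without these 2 replicates was planned, but with earlier results of these data known.

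The comparison, the 31 gene lists and the genes were chosen with earlier results of these data known. Named genes were taken from those the study measured or labelled and from the 3 with the highest level and the 2 with the smallest p of each list, not all of which are described. The 10 genes with the smallest p in each direction were all named. *Acly*, *Bst2*, *Ccl27a*, *Csf3r*, *Cxcl2*, *Cxcr2*, *Fgfr3*, *Gjb2*, *Ifng*, *Il17a*, *Il17f*, *Il22*, *Irf9*, *Klk6*, *Krt16*, *Lcn2*, *Ndufa4l2*, *Sprr1b*, *Stfa3*, *Tnnc2*, *Uox* and the genes called by DESeq2 were chosen after their values were seen.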

Additional observations from a re-analysis of the deposited data

Results flagged for a closer look

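Of 248 groups of 5 values examined (32 list scores and the CPM of the genes described, in WT and in lesional skin), 15 held a library that stood far from the other 4. Chance alone flags about 1 in 20 groups, so 15 of 248 is near the number that chance gives. The rule looks for 1 library apart from the rest and cannot flag 2 libraries that stand apart together. The score of the neutrophil list was 1.80 above the WT mean in lesional replicate 11, against −0.01 to 0.50 in the other lesional libraries. The melanocyte score of WT replicate 1 was −0.54, and the sex-linked scores of WT replicate 1 and lesional replicate 11 were −2.41 and −2.03. In single genes, the low value was in WT replicate 10 for *Otulin* (12.2 CPM, others 22.9 to 28.1), in WT replicate 4 for *Ddx60* (3.92 CPM), in lesional replicate 5 for *Apol7a* (3.07 CPM), in lesional replicate 11 for *Lyve1* (46.2 CPM) and in lesional replicate 8 for *Foxp3* (8.36 CPM). The high value was in WT replicate 13 for *S100a8* (3.75 CPM), in WT replicate 1 for *Krt16* (91.4 CPM), in WT replicate 10 for *Traf2* (8.86 CPM), in WT replicate 7 for *Gm20234* (0.446 CPM, 1 count, others 0), in lesional replicate 11 for *Trbc2* (50.2 CPM) and in lesional replicate 14 for *Acaca* (54.5 CPM, others 36.8 to 39.7).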

How the results depend on the processing

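No paired analysis was run because the replicate numbers in the labels are unique to each library and no label gives a pairing. The numbers run in sets of 3 with 1 library of each group, but the labels do not say what a set shares, so none was used as a block. Calls at an adjusted p under 0.05 numbered 0 in every edgeR and voom fit run and 14 with DESeq2, where *Rtp4* (log2 fold change 3.40), *Ddx60* (2.41), *Ifi44* (4.82), *S100a8* (8.53), *S100a9* (8.93) and *Krt6b* (8.95) were among those called. Genes higher at an unadjusted p under 0.05, 550 as reported, numbered 826 with no filter, 362 with at least 10 counts in every library, 290 with voom, 242 when a log2 difference of 1 or more was asked for, and 251 (without lesional replicate 11) to 803 with 1 library left out. Without lesional replicate 2 there were 357, and without replicates 2 and 11 there were 209. Genes lower at that p, 246 as reported, numbered 466 with no filter, 391 with all 15 libraries, 64 with that bound and 169 to 367 with 1 library left out. With library totals alone as scaling, 438 were higher and 315 lower. Against non-lesional skin, 164 (without lesional replicate 11) to 748 genes were higher with 1 library left out and 212 without lesional replicates 2 and 11.

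Without lesional replicates 2 and 11 the list medians were 0.0089 for cytokines and chemokines, −0.38 for stress keratins, −0.14 for remodelling, −0.16 for neutrophil, −1.34 for hair and 0.22 for the list of stained, measured or labelled genes. With at least 10 counts in every library they were 0.22 for neutrophil, 0.54 for T cell, −0.34 for hair and 0.45 for the stained, measured or labelled genes. T cell and hair medians were 0.59 and −1.16 with no filter and 0.61 and −1.21 with DESeq2, and T cell was 0.33 with all 15 libraries. Without lesional replicate 11 alone the medians were 0.35 for IFN-γ-induced genes, 0.75 for type I IFN-induced genes, 0.39 for MHC class I, 0.64 for cytokines and chemokines, 0.36 for remodelling, 0.029 for adhesion, 0.32 for neutrophil, 0.079 for sterol synthesis and 0.985 for the stained, measured or labelled genes. With 1 library left out the mast cell median ran from 0.049 to 0.61, the hair median from −1.02 to −0.024 and the fatty acid median from −0.012 to 0.27. The direction turned for *Otulin*, where values with 1 library left out ran from −0.056 (without WT replicate 10) to 0.19, and, without lesional replicates 2 and 11, for *Krt6a* (−0.80), *Krt6b* (−0.85), *Krt16* (−1.004), *Krt17* (−0.25), *Gjb2* (−1.13), *Krt14* (−0.050), *Lor* (0.022), *Klk6* (−0.72), *Myd88* (−0.065), *Cd14* (−0.070) and *Mmp9* (−0.18). Among WT libraries, replicate 1 held the highest value of *Krt6a*, *Krt6b*, *Krt16*, *Krt17*, *Gjb2*, *Krt14* and *Klk6*, and it was kept in these fits. Where a setting drops genes or libraries, fewer genes or samples were tested, and otherwise the cause was not tested. Library totals of 1962604 to 2567138 counts limit what can be said of genes of a few CPM.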
